A study of Mus musculus with 12 samples.

Results

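The genes described here encode the extracellular matrix of the brain and of perineuronal nets, and were chosen by name: the lecticans Bcan, Ncan and Acan, the link proteins Hapln1, Hapln2 and Hapln4, the tenascins Tnr and Tnc, the hyaluronan synthase Has2 and the membrane-bound proteoglycan Cspg5. All 10 were found among the 30165 genes of the OPC table and among the 17918 genes of the neuron table. The study asked whether oligodendrocyte precursor cells (OPCs) communicate with neurons through contacts on neuronal cell bodies. Among its models were mice whose OPCs lose the voltage-gated calcium channels Cav1.2 (Cacna1c) and Cav1.3 (Cacna1d). RNA was sequenced from cells of the mouse cortex in 4 groups of 3 libraries each, namely OPCs and neurons of ctl and of dKO mice, and each library pooled a pair of mice. The dKO mice carried floxed Cacna1c and Cacna1d alleles and a tamoxifen-inducible Cre expressed from the NG2 (Cspg4) locus, with tamoxifen given in the early postnatal period. The Cre acts in NG2-expressing cells, so the neurons of dKO mice were not its target. The ctl mice are labelled as wild type, and whether they carried the Cre or a floxed allele, and the age at collection, are not given in the sources used here. OPCs were enriched on magnetic beads against CD140, NG2 and O4, the last of which also binds later oligodendrocyte stages. Neurons were the cells left after beads had removed astrocytes, endothelial cells, microglia and O4-positive cells.

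Brain matrix is built on hyaluronan, a long sugar chain that Has enzymes spin out through the plasma membrane. Lecticans are chondroitin sulfate proteoglycans that bind hyaluronan at one end and tenascins at the other, and link proteins lock the lectican to the hyaluronan. Where these parts condense around cell bodies they form perineuronal nets, best known on parvalbumin interneurons, and at nodes of Ranvier they form a related coat. OPCs, astrocytes and neurons all make parts of this matrix.

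Several members lie next to each other or to a close relative in the genome. Positions follow the OPC table, whose coordinates differ from those of GRCm38. Bcan (chromosome 3, 87894838 to 87907537) and Hapln2 (chromosome 3, 87929057 to 87934890) sit on the minus strand with 21519 bases and no gene between them. Hapln4 (chromosome 8, 70536107 to 70543512, plus strand) and Ncan (chromosome 8, 70545735 to 70573523, minus strand) converge, with 2222 bases between their ends. Hapln1 (chromosome 13, 89687915 to 89759771, plus strand) lies 43659 bases from the lectican gene Vcan, and Acan (chromosome 7, 78703231 to 78764847, plus strand) ends 2 bases from the link protein gene Hapln3 on the other strand. Lectican and link protein genes are thus paired at 4 places. Tnr lies on chromosome 1, Tnc on chromosome 4, Has2 on chromosome 15 and Cspg5 on chromosome 9. Tnc, Has2, Hapln1 and Cspg5 each overlap a gene on the opposite strand and Tnr overlaps a pair of predicted genes on its own strand. The library kit does not mark strand and the counting setting is not stated, so reads in these overlaps cannot be told apart.

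The promoters of 4 members are printed because Bcan and Hapln2 are neighbours whose fold changes had opposite signs in OPC libraries, and Ncan and Hapln1 were the lectican and link protein at the smallest p in neuron and OPC libraries, respectively. Sequences are from RefSeq on GRCm38.p6 and hold the 150 bases before the annotated start, 5′ to 3′ on the gene's strand. Capitals mark an E-box, CANNTG, which reads as the same motif on both strands.
Bcan, chr3:88000357-88000506, minus strand: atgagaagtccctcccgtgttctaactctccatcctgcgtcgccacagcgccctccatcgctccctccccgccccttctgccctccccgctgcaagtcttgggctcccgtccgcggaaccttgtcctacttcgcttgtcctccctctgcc
Hapln2, chr3:88027512-88027661, minus strand: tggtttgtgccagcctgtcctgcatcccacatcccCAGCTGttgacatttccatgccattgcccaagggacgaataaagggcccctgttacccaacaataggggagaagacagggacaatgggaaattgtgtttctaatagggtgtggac
Ncan, chr8:70120845-70120994, minus strand: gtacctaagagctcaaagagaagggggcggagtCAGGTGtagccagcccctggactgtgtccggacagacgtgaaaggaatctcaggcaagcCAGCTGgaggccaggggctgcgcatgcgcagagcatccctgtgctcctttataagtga
Hapln1, chr13:89540486-89540635, plus strand: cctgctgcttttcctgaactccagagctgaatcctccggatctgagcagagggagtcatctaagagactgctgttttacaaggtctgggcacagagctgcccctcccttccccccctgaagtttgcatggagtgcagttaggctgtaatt

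The Bcan window had a GC content of 64.7% and no E-box, and the Hapln2 window had a GC content of 51.3% and 1 E-box. The Hapln2 window also held 1 copy of ACAATG, a SOX-type motif found on either strand in 6.41% of 32851 promoter windows. The related motif ACAAAG, present in 9.88% of windows, occurred in none of the 4. Ncan had 2 E-boxes and Hapln1 none. The RefSeq table held 7 of the 10 members, of which 3 had an E-box, beside 47.7% of all windows. These matches describe the letters in the windows only.

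Total counts ranged from 14935963 to 19812274 in OPC libraries and from 15052901 to 16344585 in neuron libraries. Of the targeted genes in OPC libraries, Cacna1c had 252 to 337 normalized counts in dKO against 373 to 439 in ctl, without overlap (as for 9.54% of genes in that direction), with a log2 fold change of -0.44 (SE 0.15, adjusted p = 0.349). Cacna1d had 92.8 to 232 against 191 to 255, with overlap and a log2 fold change of -0.55 (SE 0.31, adjusted p = 0.531), so neither targeted gene passed the adjusted test. Only some exons of each gene were floxed, while the counts cover the whole gene in all cells sorted. They therefore do not measure the deletion itself. The OPC libraries held the OPC markers, but the summed level of 12 oligodendrocyte markers (9117 to 15980 FPKM) was far above that of 11 OPC markers (396 to 806 FPKM). In the neuron libraries the summed level of 11 endothelial markers (11200 to 29340 TPM) was far above that of 10 neuron markers (477 to 854 TPM). All levels below are therefore those of the sorted mixture, in which fewer cells of a type and less RNA per cell cannot be told apart. FPKM and TPM both divide reads by gene length and by depth, but the tables were normalized separately, and levels were not compared across them.

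In ctl OPC libraries the members fell into an abundant and a scarce set of 5 genes each. Hapln2, the link protein of nodes of Ranvier, was the most abundant, with 123, 179 and 157 FPKM in ctl replicates 1 to 3 (mean 153 ± 28.1, SD, n = 3), at rank 158 of the 30165 genes. The lectican Bcan had 25.6, 52.3 and 47.7 FPKM (41.9 ± 14.3), and Tnr, the tenascin of oligodendrocyte lineage cells and nets, had 13.7, 24.0 and 18.1 FPKM (18.6 ± 5.19). These 3 genes did not overlap with each other in any ctl library.

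Cspg5, also called neuroglycan C, and the lectican Ncan followed, at 8.75 ± 3.47 and 6.29 ± 2.00 FPKM, and their ranges over the ctl libraries overlapped. The remaining members were all under 1 FPKM in every ctl library. Their means were 0.468 for Hapln1, 0.325 for Acan, 0.289 for Has2, 0.184 for Tnc and 0.115 for Hapln4, and of the neighbours in this order only Tnc and Hapln4 were separate. Acan, the main lectican of perineuronal nets, therefore stood among the scarce members.

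**Figure D1:**
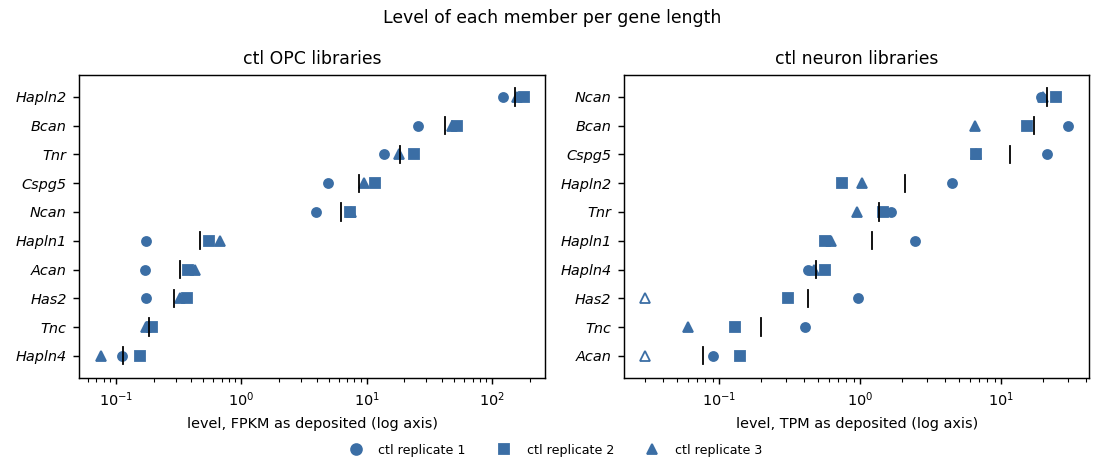
Level of each member in the 3 ctl OPC libraries (left, FPKM) and the 3 ctl neuron libraries (right, TPM) on log axes, ordered by the mean (vertical bar); open symbols at the left edge are libraries listed at 0. Hapln2 leads in the OPC libraries at a mean of 153 FPKM and Ncan in the neuron libraries at 21.1 TPM, and the panels are on separate scales.

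In ctl neuron libraries the order differed. Ncan led with 19.2, 24.5 and 19.7 TPM (21.1 ± 2.94, SD, n = 3), followed by Bcan with 30.0, 15.2 and 6.59 TPM (17.3 ± 11.8) and Cspg5 with 21.3, 6.63 and 6.66 TPM (11.5 ± 8.46). The ranges of Ncan and Bcan overlapped, as did those of Bcan and Cspg5. Hapln2 (2.10 TPM), Tnr (1.35), Hapln1 (1.21), Hapln4 (0.487), Has2 (0.427), Tnc (0.200) and Acan (0.0767) were lower, and Cspg5 against Hapln2 was the single break between neighbours whose ctl libraries did not overlap. Ncan varied least between the ctl libraries relative to its mean among the 3 leading genes, with a coefficient of variation of 13.6% of normalized counts against 66.1% for Bcan and 68.5% for Cspg5.

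Within the lectican family, which includes the non-member Vcan, the makeup of the OPC libraries was close between groups. Bcan made up 79.9% ± 0.84 of the summed lectican FPKM in ctl and 80.0% ± 1.09 in dKO (SD, n = 3). Ncan made up 12.1% ± 0.61 and 12.7% ± 1.84, Vcan 7.41% ± 1.08 and 6.64% ± 2.56, and Acan 0.61% ± 0.10 and 0.65% ± 0.29. Among the link proteins, Hapln2 held 99.2% ± 0.23 in ctl and 97.9% ± 0.91 in dKO OPC libraries. Hapln1 held 0.142%, 0.309% and 0.424% in ctl replicates 1 to 3 but 0.564%, 1.62% and 1.09% in dKO replicates 1 to 3, with no overlap. The other minor link proteins were separated in the same way, Hapln3 at 0.389% ± 0.16 in ctl and 0.764% ± 0.24 in dKO, and Hapln4 at 0.0754% ± 0.024 and 0.227% ± 0.16. These shares all depend on Hapln2, which made up nearly the whole sum and was below all ctl libraries in dKO replicates 2 and 3. In normalized counts Hapln3 overlapped between groups, and 7.41% of all genes tested were higher in dKO without overlap. In neuron libraries Ncan took the largest mean share of the lecticans, 46.8% ± 11.7 in ctl and 58.2% ± 4.95 in dKO, and Bcan 34.3% ± 17.6 and 21.4% ± 5.14.

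In OPC libraries, 8 of the 10 members were higher on average in dKO than in ctl, by up to 2.86-fold for Hapln1, but none had an adjusted p under 0.05, beside 0.00576% of the 17364 genes tested. The higher levels were carried mainly by dKO replicate 2, the highest of all 6 libraries for 9 members, and by ctl replicate 1, the lowest for 7. Hapln2, the most abundant member, and Has2 were the only ones whose fold change was below 0, and that of Has2 was -0.001. The values below are counts scaled by TMM, a normalization for library composition, in the order of replicates 1 to 3.

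Bcan had 1850, 3705 and 3408 normalized counts in ctl and 3502, 9213 and 4046 in dKO libraries. The dKO replicate 2 stood far above the rest and dKO replicate 1 lay within the ctl range. The log2 fold change was 0.90 (SE 0.39, adjusted p = 0.432). Ncan had 508, 933 and 943 in ctl and 852, 2597 and 1297 in dKO, again with dKO replicate 1 inside the ctl range and a log2 fold change of 1.00 (SE 0.39, adjusted p = 0.398). Acan had 22.8, 48.8 and 56.4 in ctl and 64.5, 176 and 30.0 in dKO. Its dKO replicates 1 and 2 exceeded all ctl libraries and dKO replicate 3 lay within their range, and the log2 fold change of 1.10 had an SE of 0.62 (adjusted p = 0.530).

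Hapln1, a link protein of nets and of cartilage, had 18.4, 57.2 and 70.0 normalized counts in ctl and 94.8, 191 and 126 in dKO libraries. The groups did not overlap, with every dKO library above every ctl library. Its log2 fold change of 1.51 (SE 0.47, 95% interval 0.45 to 2.58) was the largest of the members, and its adjusted p was 0.313 by edgeR's quasi-likelihood test and 0.0685 by DESeq2. Hapln4, another link protein, had 7.87, 10.7 and 5.22 in ctl and 13.7, 31.8 and 11.8 in dKO, also without overlap, at counts of 5 to 35 reads per library. Its log2 fold change was 1.27 (SE 0.54, adjusted p = 0.430). Its ctl mean of 7.94 was below the filter on low counts, which it passed only through its dKO libraries. These values therefore add no support for a difference. Hapln2 had 5175, 7380 and 6559 in ctl and 6669, 4576 and 4548 in dKO. The dKO replicates 2 and 3 were below all ctl libraries and dKO replicate 1 was among them, and the log2 fold change was -0.28 (SE 0.20, adjusted p = 0.612). It ranged from -0.48 without dKO replicate 1 to -0.16 without ctl replicate 2.

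The tenascin Tnr had 3134, 5395 and 4094 normalized counts in ctl and 4226, 8427 and 3524 in dKO libraries, so that dKO replicate 2 alone exceeded the ctl range (log2 fold change 0.36, SE 0.33, adjusted p = 0.706). Tnc, a tenascin of developing and reactive tissue, had 25.4, 26.2 and 24.0 in ctl and 16.6, 69.0 and 44.9 in dKO. The ctl libraries were nearly equal and the dKO libraries lay on both sides of them (log2 fold change 0.79, SE 0.49, adjusted p = 0.564). Cspg5 had 885, 2061 and 1698 in ctl and 2070, 5128 and 1996 in dKO. Its dKO replicates 1 and 3 were close to ctl replicate 2, and the log2 fold change was 0.99 (SE 0.41, adjusted p = 0.424). Has2 had 13.1 to 27.4 in ctl and 15.0 to 28.1 in dKO, with full overlap and a 95% interval of the log2 fold change from -1.06 to 1.06.

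**Figure D2:**
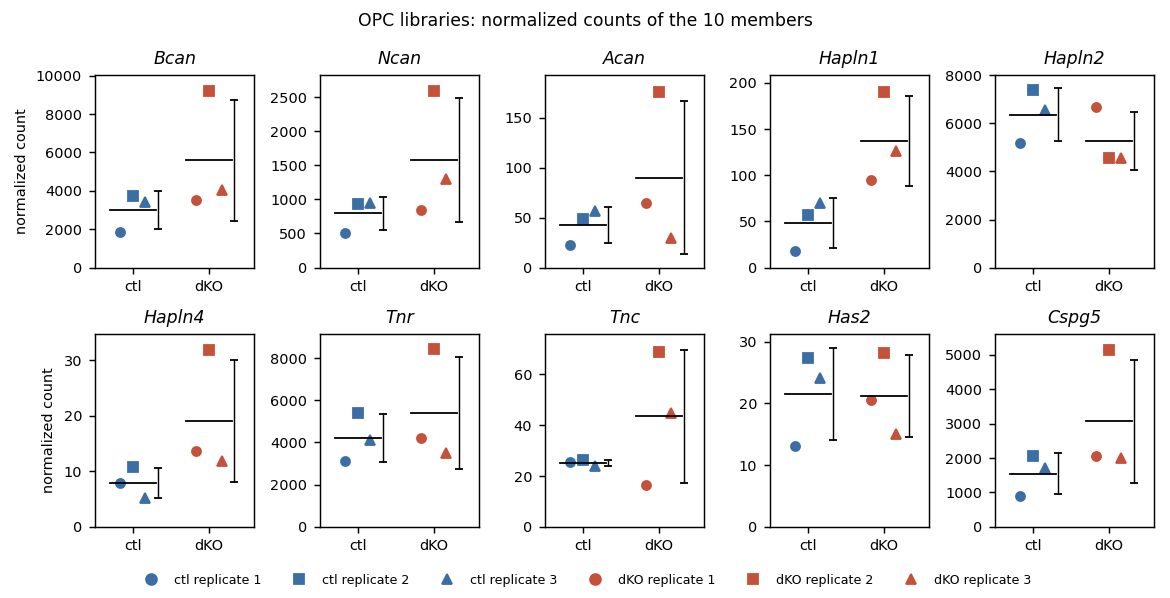
Normalized counts of the 10 members in each OPC library (symbols by replicate), with the group mean (line) and SD (bar). For 9 members dKO replicate 2 is the highest point, and Hapln1 and Hapln4 are the members whose groups do not overlap. Hapln4 passed the filter on low counts only through its dKO libraries.

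By edgeR's quasi-likelihood test, 0 of the 10 members passed after adjustment over all genes, and the lowest adjusted p was 0.313. DESeq2 called 0 members, beside 1.69% of the same genes. At an unadjusted p under 0.05, edgeR gave 5 members (Hapln1, Ncan, Cspg5, Hapln4 and Bcan) beside 11.5% of all genes tested, all 5 of them higher in dKO, beside 6.27% in that direction, and DESeq2 gave 3 members, beside 11.9% of genes. Groups did not overlap, with dKO higher, for 2 members, beside 7.41% of genes. Hapln4 is in both of these member counts but passed the filter on low counts only through its dKO libraries, so it adds no support to either. The median log2 fold change was 0.95 over the members and 0.01 over all genes tested. These p-values measure the spread between libraries of pooled mice.

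The fold changes of several members were smaller without 1 of a pair of libraries. Without dKO replicate 2 the log2 fold change was 0.34 for Bcan, 0.44 for Ncan, 0.40 for Cspg5, 0.16 for Acan, 0.28 for Tnc and -0.12 for Tnr, while Hapln1 stayed at 1.20, and 1 member was left at an unadjusted p under 0.05. Without ctl replicate 1 it was 0.65 for Bcan, 0.75 for Ncan, 0.71 for Cspg5 and 1.11 for Hapln1, while Hapln4 (1.27) and Tnc (0.79) kept their values, and 1 member was left. Without ctl replicate 3, 2 members were left, although the log2 fold changes of Bcan (1.00), Ncan (1.13), Cspg5 (1.04) and Hapln1 (1.88) were no smaller than with it, and that of Hapln4 was 1.04. With ctl replicate 1 and dKO replicate 2 both left out, Bcan (0.09), Ncan (0.20) and Cspg5 (0.11) were near 0 and Hapln1 was at 0.79, with its adjusted p at 0.359. That last setting was chosen after the values had been seen.

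**Figure D3:**
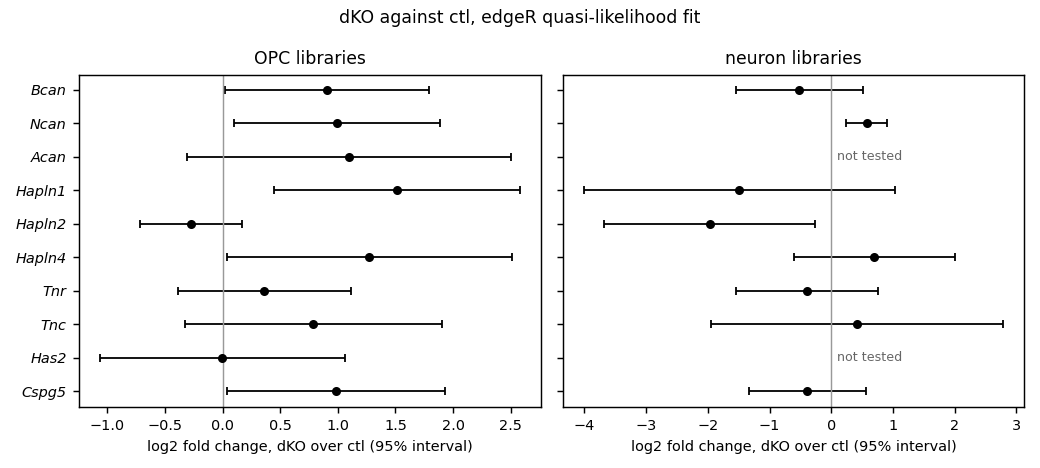
Log2 fold change of each member, dKO over ctl, with its 95% interval, in OPC (left) and neuron (right) libraries; Acan and Has2 were not tested in neurons. In OPC libraries Hapln1 has the largest value (1.51) and Hapln2 is at -0.28, and in neuron libraries the interval of Ncan (0.24 to 0.91) is the narrowest.

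Markers of other cells also differed between these libraries. The 11 astrocyte markers were all higher in dKO OPC libraries, 9 of them at an unadjusted p under 0.05 (6.27% of all genes tested in that direction) and with a median log2 fold change of 1.08, and their summed level was 244 to 376 FPKM in ctl and 365 to 930 FPKM in dKO, with dKO replicate 2 the highest. The 12 microglia markers were also all higher, each at an unadjusted p under 0.05, with a median of 1.31 and sums of 138 to 169 FPKM in ctl and 192 to 533 FPKM in dKO, but dKO replicate 2 was the lowest dKO library for them. The 11 endothelial markers were all higher too, 0 of them at an unadjusted p under 0.05, with a median of 0.36 and sums of 538 to 763 FPKM in ctl and 466 to 1255 FPKM in dKO, and dKO replicate 2 was the lowest of all libraries. The 12 markers of oligodendrocytes, the cells that Hapln2 is best known from, had a median of -0.43, with 10 lower, 4 of them at an unadjusted p under 0.05 (5.27% of all genes tested in that direction), and sums of 12370 to 15980 FPKM in ctl and 9117 to 15220 FPKM in dKO. The OPC markers had sums of 518 to 806 FPKM in ctl and 396 to 733 FPKM in dKO, and a median of 0.45. No marker of these 5 lists was listed at 0 across the libraries.

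Single OPC markers had different extremes. Of the 11, 7 were lowest in ctl replicate 1 and highest in dKO replicate 2, among them the receptor gene Pdgfra, from 765 to 3255 normalized counts, and Cspg4, the NG2 gene, from 564 to 938. The lineage transcription factor genes Olig1, Olig2 and Sox10 were instead highest in ctl replicate 2 and lowest in dKO replicate 3, as was the summed level of the list. The part that these cell mixtures had in the members' values was not tested.

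**Figure D4:**
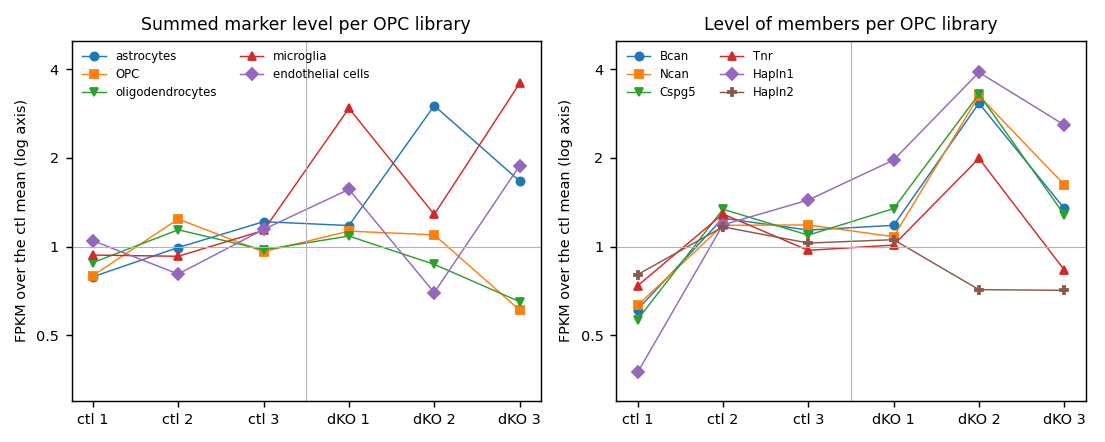
Summed marker level of 5 cell types (left) and level of 6 members (right) in each OPC library, as FPKM over the mean of the ctl libraries on a log axis. Astrocyte markers, Bcan, Ncan, Cspg5, Tnr and Hapln1 are highest in dKO replicate 2, and Hapln2 and the oligodendrocyte markers are lowest in dKO replicate 3.

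In neuron libraries the members differed in sign. Of the 8 members that passed the filter on low counts, 3 were higher and 5 lower in dKO, and Ncan, the most abundant, was 1.49-fold higher with no overlap between groups. Hapln2 was lower without overlap, at 0.255 of the ctl level, and Bcan, Cspg5 and Tnr overlapped. Of all 10 members, 6 were highest in ctl replicate 1. No member passed the adjusted test, beside 0.0% of the 14352 genes tested.

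Ncan, a lectican made by neurons as well as glia, had 1211, 1593 and 1412 normalized counts in ctl and 2128, 2212 and 1942 in dKO neuron libraries. All dKO libraries were above all ctl libraries and both groups were narrow. The log2 fold change was 0.57 (SE 0.15, adjusted p = 0.521 by edgeR's quasi-likelihood test and 0.0802 by DESeq2), and it stayed between 0.48 and 0.68 whichever library was left out. Bcan had 748, 373 and 183 in ctl and 207, 366 and 339 in dKO, with the dKO libraries inside the ctl range. Its log2 fold change of -0.52 (SE 0.45, adjusted p = 0.755) became 0.13 without ctl replicate 1 and -0.88 without ctl replicate 3. Acan was at 6, 10 and 0 estimated counts in ctl and 0, 1 and 1 in dKO, too few to be tested.

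Hapln2 had 108, 17.5 and 25.7 normalized counts in ctl and 14.7, 13.3 and 10.2 in dKO neuron libraries. The 3 dKO libraries were below all ctl libraries, but ctl replicate 1 stood far above the other two. The log2 fold change was -1.97 (SE 0.75, adjusted p = 0.521), with values from -2.38 without ctl replicate 2 to -0.76 without ctl replicate 1. Hapln1 had 108, 25.3 and 31.1 in ctl, and 0, 42.6 and 15.4 in dKO. Its groups overlapped, ctl replicate 1 was again the highest, and the log2 fold change was -1.49 (SE 1.10, adjusted p = 0.713), with values from -2.82 without dKO replicate 2 to -0.54 without ctl replicate 1. Hapln4 had 13.2 to 17.5 in ctl and 38.2, 13.3 and 24.6 in dKO (log2 fold change 0.69, SE 0.57, adjusted p = 0.739), with values from 0.27 without dKO replicate 1 to 1.00 without dKO replicate 2.

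Tnr had 182, 164 and 75.0 normalized counts in ctl and 138, 42.6 and 139 in dKO neuron libraries, with overlap (log2 fold change -0.40, SE 0.50, adjusted p = 0.834). Its fold change ranged from -0.70 without ctl replicate 3 to -0.02 without dKO replicate 2. Tnc was at 3 to 22 estimated counts in ctl and 1 to 26 in dKO, with full overlap (adjusted p = 0.928). Cspg5 had 691, 222 and 245 normalized counts in ctl and 300, 239 and 344 in dKO. The dKO libraries lay between ctl replicates 2 and 1, and the log2 fold change of -0.39 (SE 0.42, adjusted p = 0.797) became 0.33 without ctl replicate 1 and -0.67 without ctl replicate 2. Has2 was estimated at 35, 12 and 0 counts in ctl and at 0, 7 and 0 in dKO, and was not tested.

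**Figure D5:**
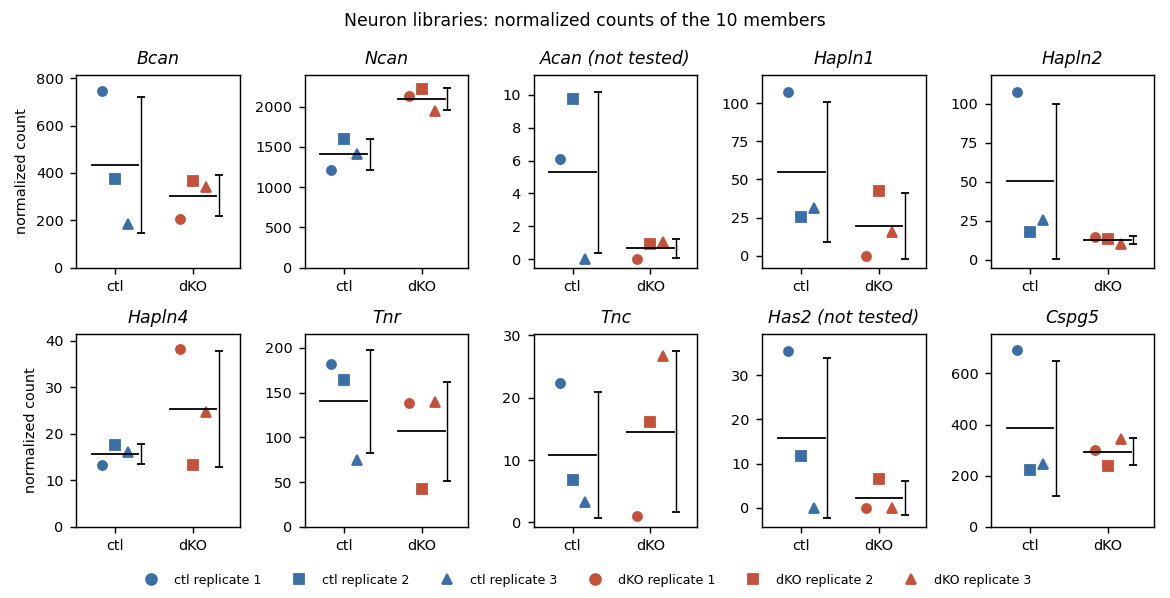
Normalized counts of the 10 members in each neuron library (symbols by replicate), with the group mean (line) and SD (bar). The dKO libraries of Ncan all lie above the ctl libraries, and ctl replicate 1 is the highest point for 6 members.

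By edgeR's quasi-likelihood test, 0 of the 8 tested members passed after adjustment, and DESeq2 called 0, beside 0.613% of genes. An unadjusted p under 0.05 was found for 2 members by either tool, beside 9.0% of genes by edgeR and 10.7% by DESeq2. These were Ncan, higher in dKO beside 4.96% of genes, and Hapln2, lower beside 4.04%. Groups without overlap were found for 1 member higher in dKO, beside 7.5% of genes, and 1 lower, beside 7.82%. The median log2 fold change was -0.40 over the 8 members and 0.01 over all genes tested.

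In the neuron table each gene is split over its RefSeq transcripts, and the split was uneven for some members. Ncan had a single transcript, so its value does not rest on a split. Bcan had 6, of which 1 held 399 and 171 estimated counts in ctl replicates 1 and 2 and 0 in the other 4 libraries. Taking the most abundant transcript in place of the sum turned the log2 fold change of Bcan to 1.77 and that of Tnr, which had 7 transcripts, to 1.04, with adjusted p values of 0.821 and 0.927.

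Markers of other cells were also uneven in the neuron libraries. The 12 oligodendrocyte markers were all lower in dKO, 1 of them at an unadjusted p under 0.05 (4.04% of all genes tested in that direction). Their median log2 fold change was -0.88, with sums of 3035, 1723 and 508 TPM in ctl and 705, 1014 and 1562 TPM in dKO. The 11 astrocyte markers had sums of 663, 307 and 287 TPM in ctl and 174, 394 and 434 TPM in dKO, with 8 lower. The 12 microglia markers were all lower, with sums of 2541, 533 and 1007 TPM in ctl and 424, 1366 and 771 TPM in dKO. The 11 endothelial markers, which had the largest sums in these libraries, were all lower as well, with 25230 to 29340 TPM in ctl and 11200 to 23610 TPM in dKO. Of these markers, 3 were at an unadjusted p under 0.05, beside the same 4.04% of genes. All 4 sums were highest in ctl replicate 1, as were Bcan, Cspg5, Hapln1 and Hapln2. The 11 OPC markers, 10 of them lower with a median of -0.81, had sums of 74.0, 58.0 and 13.05 TPM in ctl. Their sums in dKO were 22.7, 27.9 and 35.7 TPM, so ctl replicate 1 was again the highest. The neuron markers went the other way, 8 of 10 higher with sums of 477 to 636 TPM in ctl and 646 to 854 TPM in dKO. The list of parvalbumin interneuron markers had sums of 120 to 166 TPM in ctl and 197 to 205 TPM in dKO, with 9 of 11 higher. In each of these lists 2 genes were higher at an unadjusted p under 0.05, beside 4.96% of all genes tested. The parvalbumin list is not specific to these cells, and each of its genes overlapped between groups, with Pvalb itself at a log2 fold change of 0.26 (SE 0.37). No marker of these lists was listed at 0 across the libraries. The part of these markers in the members' values was not tested.

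Of the close relatives of the members, Vcan, a lectican of OPCs, had 690, 1272 and 934 normalized counts in ctl and 1517, 2158 and 898 in dKO OPC libraries. As for Bcan, ctl replicate 1 was the lowest and dKO replicate 2 the highest (log2 fold change 0.66, SE 0.32, adjusted p = 0.468). In neuron libraries the log2 fold change of Vcan was 0.48 (SE 0.33, adjusted p = 0.693). The hyaluronan synthase Has1 had 49.9, 22.6 and 27.2 in ctl and 12.7, 10.9 and 21.4 in dKO OPC libraries, without overlap (log2 fold change -1.16, SE 0.46, adjusted p = 0.395). The log2 fold changes in OPC libraries were 0.69 for Hapln3, 0.12 for Tnxb and -0.35 for Has3, each with overlap. Tnn was not tested there, and in neuron libraries Tnxb, Tnn, Has1 and Has3 were not tested, while Hapln3 was at -0.68 on the log2 scale (adjusted p = 0.740).

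No gene of the wider matrix pathway passed the adjusted test in either cell type. Of 21 tested genes that make chondroitin sulfate, the sugar carried by lecticans, 14 were higher and 7 lower in dKO OPC libraries, with a median log2 fold change of 0.09 and 4, all higher, at an unadjusted p under 0.05, beside 6.27% of all genes tested in that direction. Csgalnact1, which starts chondroitin sulfate chains, had 309, 257 and 279 normalized counts in ctl and 414, 524 and 419 in dKO, without overlap (log2 fold change 0.68, SE 0.15, adjusted p = 0.246). In neuron libraries 6 of 20 were higher and 14 lower (median -0.19), with Chpf, which extends the chains, at 0.93 (SE 0.30, adjusted p = 0.521).

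Of the enzymes that cleave the matrix and their inhibitors, 18 of 24 were higher in dKO OPC libraries (median 0.16), 5 of them at an unadjusted p under 0.05, beside 6.27% of all genes tested in that direction, and 1 of the 6 lower ones was, beside 5.27%. Hyal2, a hyaluronidase, had 186, 192 and 194 normalized counts in ctl and 343, 228 and 373 in dKO, without overlap (log2 fold change 0.72, SE 0.20, adjusted p = 0.301). In neuron libraries 15 of 22 were higher (median 0.14), and the metalloproteinase Mmp24 had 35.6, 86.6 and 55.7 in ctl and 149, 150 and 167 in dKO (log2 fold change 1.39, SE 0.36, adjusted p = 0.521). Of the receptors and binding partners, 9 of 14 were higher in OPC libraries (median 0.13) and 9 of 16 in neuron libraries (median 0.28). The genes at the smallest p among them were the receptor phosphatase gene Ptprd in OPC libraries, at -0.55 (SE 0.18, adjusted p = 0.327, without overlap), and Cspg4 in neuron libraries, at -1.36 (SE 0.47, adjusted p = 0.521, with overlap). Cspg4 is also one of the OPC markers, and the Cre of the dKO mice is expressed from its locus.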

How the data were processed

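RNA-seq values of OPCs and neurons from the mouse cortex were analysed, with 3 libraries per group, grouped by sample titles. The OPC values the authors deposited are raw counts of reads for each Ensembl gene and FPKM values, which were the count per gene length times 1 factor per library. Their methods name HISAT2, GRCm38 and featureCounts, while the submitters' processing notes name mm39. For neurons, the authors deposited estimated counts and TPM values per RefSeq transcript, and the program is not given in the sources used here. Estimated counts were summed per gene and rounded, and 17794 of 17918 gene identifiers were matched to symbols. The authors' own fold changes and p-values, and 18 further columns of normalized values, were not used.

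In each table, genes whose TMM-normalized counts averaged 10 or more entered the quasi-likelihood test of edgeR (version 4.0.16 in R 4.3.3), with genotype as the single term, and p-values were adjusted by Benjamini-Hochberg over all of these genes, at a threshold of 0.05. DESeq2 1.42.0 was an alternative. On simulated data, 193 of 195 genes simulated with a log2 change of 2 were recovered for OPCs (17343 genes, 8 unchanged genes called) and 191 of 197 for neurons (14331 genes, 13 called). The simulation gave all genes the same dispersion, and its change was larger than that of any member, at most 1.51 in OPC libraries. It checks that the fit runs as intended and does not show the power for the members. Intervals cover the spread between libraries.

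The members, the matrix lists and the marker lists were chosen with earlier results of these data known. The named genes are all members, their close relatives outside the list, the gene with the smallest p of each other matrix list per cell type, and the targeted genes. Pdgfra, Olig1, Olig2, Sox10 and single transcripts were named after their values were seen. Alternatives covered tool, normalization, filter, threshold, replicate number, transcript summing, length scaling and each library left out. Of an overlapping gene pair or a gene with near-identical copies, the counting rule is not stated.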

Additional observations from a re-analysis of the deposited data

How the results depend on the processing

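No alternative gave a member an adjusted p under 0.05 in either cell type. At an unadjusted p under 0.05 used as the threshold, 5 members passed in OPC and 2 in neuron libraries. In OPC libraries that count was 3 with DESeq2, 1 with ctl replicate 1 and dKO replicate 2 both left out, and 1 to 7 when 1 library was left out. In neuron libraries it was 1 with the most abundant transcript and 1 to 4 when 1 library was left out. With the replicate number as a block it was 5 in OPC and 1 in neuron libraries. Deviations of same-numbered libraries had correlations of -0.108, 0.147 and 0.113 in OPC and 0.166, -0.0758 and -0.0759 in neuron libraries. These lay within the values of differently numbered libraries, -0.293 to 0.211 in OPC and -0.151 to 0.21 in neuron libraries. They cannot decide whether same-numbered libraries share a litter or a day.

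The sign turned in 15 of the recomputed fold changes. In OPC libraries these were Tnr (-0.12 without dKO replicate 2, among values up to 0.58 with 1 library left out, and -0.29 without that and ctl replicate 1), Acan (-0.15 without both) and Has2 (0.017 with no filter, 0.001 with filterByExpr, 0.002 with the block, and 0.03 to 0.21 with 1 library left out, among values from -0.27 to 0.21, and -0.53 without both libraries, where the sign did not turn). In neuron libraries these were Bcan (0.13 without ctl replicate 1, 1.77 with the most abundant transcript), Cspg5 (0.33 without ctl replicate 1), Tnr (1.04 with the most abundant transcript) and Tnc (-0.001 without ctl replicate 3). With 1 library left out, these values ranged from -0.88 to 0.13 for Bcan, from -0.67 to 0.33 for Cspg5 and from -0.001 to 1.51 for Tnc. The cause was not tested. Hapln4 in OPC libraries without dKO replicate 2, with and without ctl replicate 1, and Tnc in neuron libraries without dKO replicate 3 fell under the count filter and have no value, and neither does Tnc under the most abundant transcript. The widest 95% intervals were those of Hapln1 (-4.01 to 1.03) and Tnc (-1.95 to 2.79) in neuron libraries, and 3 libraries per group limit the precision of all members.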
